A study of Mus musculus with 16 samples.

Results

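The minichromosome maintenance (MCM) genes examined here are Mcm2, Mcm3, Mcm4, Mcm5, Mcm6, Mcm7 and Mcm10. They were taken by gene symbol from a table of RNA sequencing counts for 52636 genes in mouse descending thoracic aorta, the segment of the vessel in the chest. All 7 were among the 17125 genes with enough counts to be tested. They had been picked because of how they behaved in these same libraries, so their levels and fold changes are given as a description. No p-values are printed for them, and any pass of a threshold, kept or lost, only describes them. The samples were whole descending thoracic aortas of the inbred strains C57BL/6J and 129S6/SvEvTac, either with hypertension brought on by AngII or as controls. Angiotensin II (AngII) is a peptide that narrows blood vessels. The groups were C57BL/6J AngII, C57BL/6J control, 129S6/SvEvTac AngII and 129S6/SvEvTac control, with 4 libraries each. The labels give no age, sex, AngII dose or duration, and they do not say that the libraries came from separate animals, so any p-value measures spread between samples that may be only technical. Total counts ran from 42116120 to 61381134 in 15 libraries, and 129S6/SvEvTac AngII replicate 5 reached 121573945. Levels are given as CPM, the count relative to the scaled library total. Summed CPM of 7 smooth muscle markers stood between 12540 and 45810 in every library, so the defining genes of the main cell type of the vessel wall were present throughout. In whole tissue, fewer cells of a type and less RNA per cell cannot be told apart.

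Mcm2 to Mcm7 encode the 6 subunits of a ring that encircles DNA and unwinds it ahead of the replication fork. The ring is loaded onto replication origins before S phase in an inactive form and is switched on later by kinases and by the Cdc45 and GINS proteins. The subunits sit in the ring in equal numbers, and in most adult tissues their genes are read at low levels until cells enter the cycle. Mcm10 is not a ring subunit: it binds the loaded helicase and helps to activate it. Cells of the healthy adult aortic wall divide rarely.

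Several promoters of these genes carry words known to bind E2F factors, which drive genes of S phase entry. The 250 bases before the RefSeq start are shown for Mcm6, whose level departed most from that of the other subunits, for Mcm5, the ring subunit with the largest AngII effect in C57BL/6J, and for Mcm2, which has no such word. They come from RefSeq on GRCm38.p6, and capitals mark E2F words. The reference is a C57BL/6J genome and does not show 129S6/SvEvTac alleles.
Mcm6: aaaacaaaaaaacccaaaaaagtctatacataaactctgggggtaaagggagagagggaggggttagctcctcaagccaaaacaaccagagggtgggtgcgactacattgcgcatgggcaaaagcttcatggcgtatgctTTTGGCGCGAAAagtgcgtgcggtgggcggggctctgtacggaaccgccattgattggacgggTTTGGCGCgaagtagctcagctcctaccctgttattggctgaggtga
Mcm5: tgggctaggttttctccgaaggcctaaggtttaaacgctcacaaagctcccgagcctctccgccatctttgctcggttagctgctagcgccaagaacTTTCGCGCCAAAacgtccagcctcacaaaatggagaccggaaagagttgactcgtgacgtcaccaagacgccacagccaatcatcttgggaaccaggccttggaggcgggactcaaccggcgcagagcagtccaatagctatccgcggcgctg
Mcm2: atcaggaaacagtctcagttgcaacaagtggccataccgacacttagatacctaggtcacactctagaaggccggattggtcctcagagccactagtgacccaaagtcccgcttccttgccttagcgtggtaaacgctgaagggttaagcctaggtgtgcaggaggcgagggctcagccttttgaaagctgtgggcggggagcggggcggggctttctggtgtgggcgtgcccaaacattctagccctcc
The Mcm6 stretch is the minus strand of chr1:128359706-128359955, that of Mcm5 the plus strand of chr8:75109259-75109508 and that of Mcm2 the minus strand of chr6:88898781-88899030. The words searched on both strands were TTTCCCGC, TTTCGCGC, TTTGCCGC and TTTGGCGC. Mcm6 holds 3 of them, beginning 110, 106 and 47 bases before the start, and the first and the second overlap in the run of capitals. Mcm5 holds 2 overlapping words, beginning 153 and 149 bases before the start. Counting also the 50 bases after the start, an E2F word lay in 4 of 7 windows of the MCM genes (57.1%), in 21 of 77 windows of the other replication genes described below (27.3%) and in 744 of 32851 windows of all genes (2.26%). The 7 windows belong to 6 genes, since Mcm7 has an alternative start and Mcm4, with no entry, was not searched, and the other genes with a word were Mcm3 and Mcm7. The CCAAT box, spelled CCAAT, lay in 7 of 7 of these windows against 37.4% of all windows, and the GC box, spelled GGGCGG, in 6 of 7 against 35.7%. Of the windows of the other replication genes 45.5% held a CCAAT box and 75.3% a GC box. These matches describe the sequence only.

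Mcm6 separated the strains more than any other MCM gene. This subunit contacts the loading factor Cdt1 and lies on the minus strand of GRCm38 chromosome 1, 128331590 to 128359664 (ENSMUSG00000026355.11). In controls it stood at 80.5, 72.6, 83.6 and 77.4 CPM in C57BL/6J and at 3.75, 3.18, 2.55 and 3.35 CPM in 129S6/SvEvTac. The groups lay far apart, and each was narrow. The means were 78.5 ± 4.67 CPM in control C57BL/6J and 3.21 ± 0.50 CPM in control 129S6/SvEvTac aortas (SD, n = 4 each), a log2 fold change of 4.61 ± 0.18 (SE), or 24.5-fold. The 129S6/SvEvTac level rested on 121 to 169 counts per library, so it was low but well above the floor of 3 counts. Reads of both strains were aligned to a C57BL/6J genome, and its effect on the Mcm6 count in 129S6/SvEvTac was not tested.

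The 5 partner subunits did not share that gap. Mcm2 (ENSMUSG00000002870.8, chromosome 6, 88883474 to 88898780), whose tail binds histones, averaged 8.37 ± 0.53 CPM in control C57BL/6J and 8.49 ± 0.58 CPM in control 129S6/SvEvTac aortas. Mcm7 (ENSMUSG00000029730.16, chromosome 5, 138164583 to 138172422) averaged 11.2 ± 0.64 CPM in control C57BL/6J and 10.8 ± 1.60 CPM in control 129S6/SvEvTac aortas. In both genes the control groups overlapped. Mcm3 (ENSMUSG00000041859.10, chromosome 1, 20802968 to 20820312), Mcm4 (ENSMUSG00000022673.4, chromosome 16, 15623897 to 15637400) and Mcm5 (ENSMUSG00000005410.6, chromosome 8, 75109569 to 75128439) were lower in every C57BL/6J control than in every 129S6/SvEvTac control. Mcm3 averaged 10.01 ± 0.96 CPM in C57BL/6J controls against 13.7 ± 2.39 CPM in 129S6/SvEvTac controls, a log2 fold change of -0.46 ± 0.23. Mcm4, whose tail is a target of the Cdc7 kinase, averaged 19.2 ± 1.16 CPM in control C57BL/6J and 22.9 ± 2.11 CPM in control 129S6/SvEvTac aortas, with a log2 fold change of -0.25 ± 0.14. Mcm5, which forms the gate of the ring together with Mcm2, averaged 4.77 ± 0.57 CPM in control C57BL/6J and 7.02 ± 1.17 CPM in control 129S6/SvEvTac aortas, with a log2 fold change of -0.56 ± 0.24. These 3 differences were small beside that of Mcm6 and ran the other way.

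Mcm10 (ENSMUSG00000026669.14, chromosome 2, 4989714 to 5012791) was near the limit of detection in both control groups. It had 0.22, 0.17, 0.18 and 0.10 CPM in C57BL/6J controls, against 0.18, 0.49, 0.53 and 0 CPM in 129S6/SvEvTac controls. The 0 allows a level of up to 0.0665 CPM in that library, by a floor of 3 counts that covers counting error only. The control groups overlapped. Of the 7 genes, 1 passed an adjusted p of 0.05 in edgeR's quasi-likelihood test between control strains as higher in C57BL/6J, namely Mcm6, where 5.35% of all tested genes did. Groups did not overlap for 1 gene higher and 3 genes lower in C57BL/6J, against 11.3% and 11.0% of all tested genes. Since the genes were picked on these contrasts, nothing is read from such counts here or below. The same holds for passes kept or lost when libraries are left out.

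**Figure D1:**
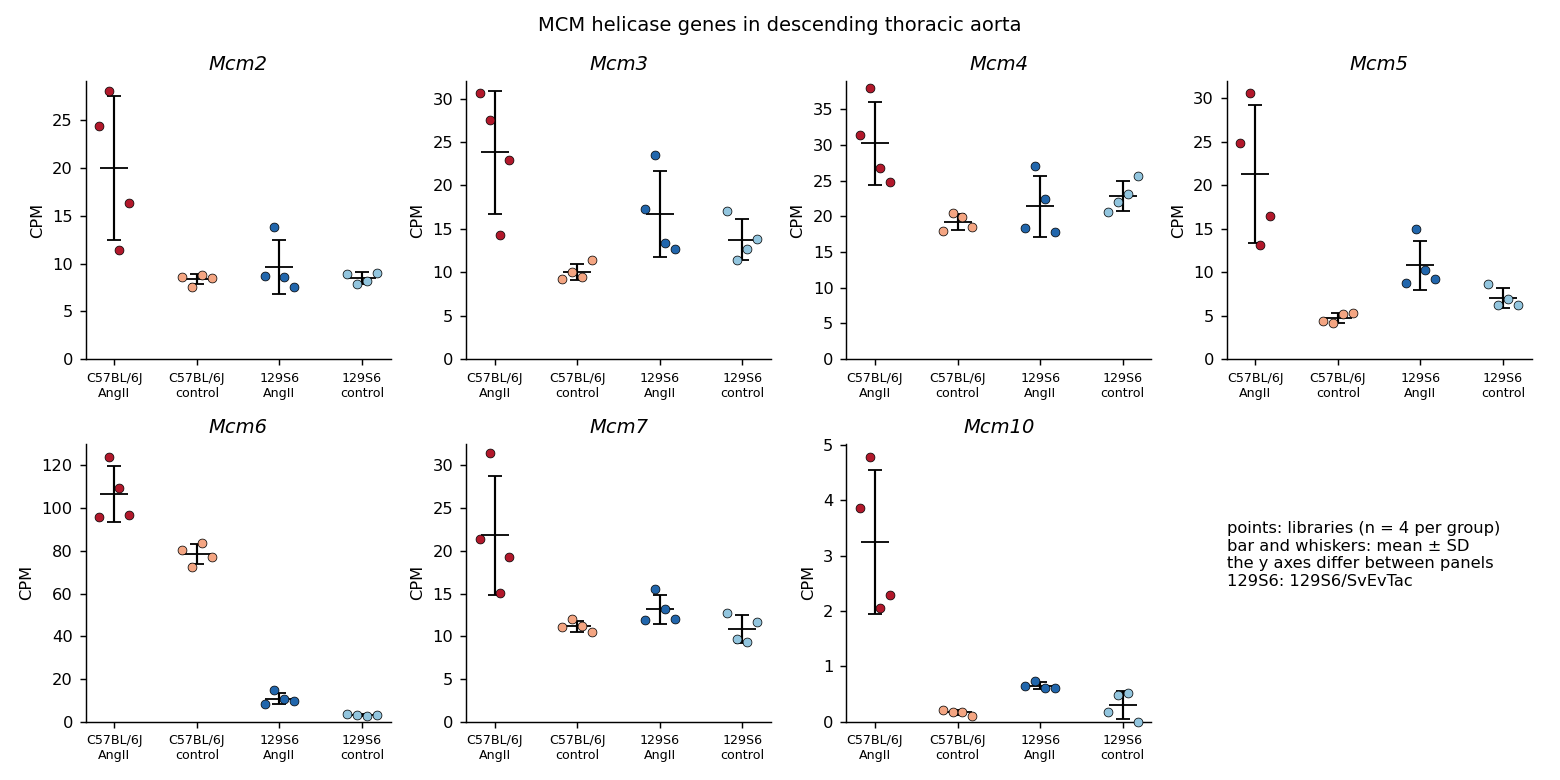
Level of each MCM gene in CPM (y axis, linear, a different range in each panel) in each of the 16 libraries, by group (x axis, 129S6 stands for 129S6/SvEvTac); points are libraries and bars and whiskers are the mean and SD of 4 libraries. Mcm6 lies at 96.0 to 124 CPM in C57BL/6J AngII and 72.6 to 83.6 CPM in C57BL/6J control libraries, and below 15 CPM in all 129S6/SvEvTac libraries.

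Scaled by exon length, Mcm6 had the highest level of the ring subunits in C57BL/6J controls and the lowest in 129S6/SvEvTac controls. Levels per length are CPM per kilobase of all exons of the gene (RPKM). In C57BL/6J controls Mcm6 reached 16.8 ± 1.002 RPKM, followed by Mcm4 at 5.36 ± 0.32, Mcm3 at 2.67 ± 0.26, Mcm7 at 2.53 ± 0.14, Mcm2 at 1.203 ± 0.08 and Mcm5 at 1.19 ± 0.14 RPKM. Mcm3 and Mcm7 lay within their spread of each other, and so did Mcm2 and Mcm5. In 129S6/SvEvTac controls Mcm4 led at 6.38 ± 0.59 RPKM, then Mcm3 at 3.66 ± 0.64, Mcm7 at 2.45 ± 0.36, Mcm5 at 1.76 ± 0.29, Mcm2 at 1.22 ± 0.08 and Mcm6 at 0.69 ± 0.11 RPKM. The order of the other subunits depends on the length used, because Mcm2 spans 6956 exon bases but 3494 in its longest transcript. Mcm6 was first in C57BL/6J controls and last of the ring subunits in 129S6/SvEvTac controls by either length. Mcm10 was far below the ring subunits, at 0.0218 ± 0.0064 RPKM in C57BL/6J controls and 0.0389 ± 0.0329 RPKM in 129S6/SvEvTac controls.

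AngII was accompanied by higher levels of every MCM gene in C57BL/6J aortas, and Mcm6 had the smallest change on the log2 scale. Mcm2 stood at 24.4, 28.1, 11.4 and 16.4 CPM in C57BL/6J AngII libraries and at 8.58, 7.59, 8.78 and 8.53 CPM in C57BL/6J controls. Mcm5 stood at 24.9, 30.7, 13.1 and 16.4 CPM in C57BL/6J AngII libraries against 4.42, 4.14, 5.17 and 5.33 CPM in the controls. All AngII libraries lay above all controls in both genes, and the AngII libraries were more scattered than the controls. The log2 fold change was 1.259 ± 0.24 for Mcm2 and 2.16 ± 0.25 for Mcm5. Mcm3 stood at 30.6, 27.5, 14.3 and 23.0 CPM in C57BL/6J AngII libraries and at 9.22, 9.97, 9.48 and 11.4 CPM in controls, a log2 fold change of 1.25 ± 0.23. Mcm4 stood at 31.4, 37.9, 26.7 and 24.8 CPM in C57BL/6J AngII libraries and at 18, 20.5, 19.8 and 18.5 CPM in controls, a log2 fold change of 0.65 ± 0.14. Again no AngII library fell within the range of the controls. Mcm7 stood at 21.4, 31.4, 15.1 and 19.2 CPM in C57BL/6J AngII libraries and at 11.1, 12.02, 11.2 and 10.5 CPM in controls, a log2 fold change of 0.96 ± 0.18. The Mcm7 count is uncertain: it shares 7.25% of its exon bases with Ap4m1 on the other strand, and a 2157-base stretch is 97.7% identical to the gene model Gm5487.

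Mcm6 and Mcm10 marked the ends of the range in C57BL/6J. Mcm6 stood at 96.0, 124, 109 and 97.0 CPM with AngII, mean 107 ± 13.1 CPM, against 78.5 ± 4.67 CPM in controls (SD, n = 4 each). The groups did not overlap, and the log2 fold change was 0.44 ± 0.15, or 1.36-fold. Mcm10 stood at 3.86, 4.79, 2.06 and 2.28 CPM with AngII, against at most 0.22 CPM in the controls. That is a log2 fold change of 4.25 ± 0.70, or 19.0-fold, from control libraries with 5 to 13 counts. All 7 genes passed the adjusted threshold as higher, where 21.8% of all tested genes did, and all 7 had groups that did not overlap, where 19.2% of all tested genes did in that direction. The pass of Mcm6 was lost without C57BL/6J AngII replicate 2 and without C57BL/6J control replicate 1, 2 or 5, with log2 fold changes of 0.36 to 0.49 over all left-out libraries. With library size as the only scaling, 45.4% of all genes called with AngII in C57BL/6J were higher, against 56.1% with the scaling used, and the 7 log2 fold changes were 0.35 to 4.16.

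In 129S6/SvEvTac aortas the pattern turned round: Mcm6 had the largest change and its partners had smaller log2 fold changes. Mcm6 stood at 8.17, 14.6, 10.6 and 9.85 CPM with AngII and at 3.75, 3.18, 2.55 and 3.35 CPM in controls. Every AngII library was above every control. The means were 10.8 ± 2.75 CPM with AngII and 3.21 ± 0.50 CPM in controls (SD, n = 4 each), a log2 fold change of 1.75 ± 0.16 (SE), or 3.37-fold. Mcm5 stood at 8.77, 14.9, 10.2 and 9.16 CPM with AngII and at 8.68, 6.17, 6.96 and 6.26 CPM in controls, a log2 fold change of 0.62 ± 0.24. Its groups lay next to each other without overlap. Mcm2, Mcm3, Mcm4 and Mcm7 had log2 fold changes of 0.18 ± 0.24, 0.28 ± 0.22, -0.10 ± 0.14 and 0.28 ± 0.18, and their groups overlapped. Replicate 2 was the highest 129S6/SvEvTac AngII library for all 7 genes, for example at 13.9 CPM of Mcm2, where the other AngII libraries had 7.50 to 8.68 CPM and the controls 7.84 to 9.01 CPM. That library also had an endothelial marker sum of 1748 CPM, against 638 to 1033 CPM in the other 129S6/SvEvTac AngII libraries, and the lowest fibroblast and macrophage sums of the 4, at 5607 and 247 CPM, whose part in its MCM levels was not tested. Mcm10 averaged 0.65 ± 0.06 CPM with AngII and 0.30 ± 0.25 CPM in controls, with a log2 fold change of 1.10 ± 0.64. Of the 7 genes 1, Mcm6, passed the adjusted threshold as higher, where 7.71% of all tested genes did. Groups did not overlap for 3, Mcm5, Mcm6 and Mcm10, where 12.4% did. With library size as the only scaling the median over all tested genes went to -0.157 and 25.2% of calls were higher, against 63.3% with the scaling used. Mcm6 then had 1.58, Mcm5 0.45 and Mcm4 -0.26.

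The size of the Mcm6 change depends on the scale. Counted in CPM, the gain with AngII was 28.1 ± 6.97 in C57BL/6J and 7.61 ± 1.40 in 129S6/SvEvTac (difference of means ± SE). Counted as a ratio it was 1.36-fold in C57BL/6J and 3.37-fold in 129S6/SvEvTac. The C57BL/6J aortas therefore gained more Mcm6 reads from a far higher control level. The difference of the AngII effects, C57BL/6J minus 129S6/SvEvTac, was -1.31 ± 0.22 on the log2 scale for Mcm6 and ran above 0 for the other 6 genes. It was 1.08 ± 0.33 for Mcm2, 0.97 ± 0.32 for Mcm3, 0.75 ± 0.20 for Mcm4, 1.54 ± 0.34 for Mcm5, 0.68 ± 0.25 for Mcm7 and 3.15 ± 0.92 for Mcm10. Mcm4, Mcm5 and Mcm10 passed the adjusted threshold as higher, where 5.34% of all tested genes did, and Mcm6 passed as lower, where 4.62% did. Mcm5 and Mcm6 passed with each of the 16 libraries left out in turn, Mcm4 in 10 of 16 omissions and Mcm10 in 2 of 16. Mcm2, Mcm3 and Mcm7 passed as well without C57BL/6J AngII replicate 3, and Mcm2 and Mcm3 without 129S6/SvEvTac AngII replicate 2. The genes were picked on these contrasts, so passes kept or lost with a library left out only describe them. With library size as the only scaling, 65.2% of all genes called for the difference were higher, against 53.6% with the scaling used.

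Between AngII aortas of the strains, Mcm6 remained far higher in C57BL/6J, and the partners were now higher there too. Mcm6 averaged 107 ± 13.1 CPM in C57BL/6J and 10.8 ± 2.75 CPM in 129S6/SvEvTac, a log2 fold change of 3.30 ± 0.16, or 9.87-fold. Mcm2 averaged 20.0 ± 7.56 CPM in C57BL/6J and 9.66 ± 2.85 CPM in 129S6/SvEvTac, with a log2 fold change of 1.06 ± 0.24. Mcm5 averaged 21.3 ± 7.98 CPM in C57BL/6J and 10.8 ± 2.85 CPM in 129S6/SvEvTac, with a log2 fold change of 0.98 ± 0.24. In both partners the strains overlapped. The log2 fold change was 0.73 ± 0.18 for Mcm7, 0.51 ± 0.22 for Mcm3 and 0.50 ± 0.14 for Mcm4, and these strains overlapped as well. Mcm10 had 2.32 ± 0.63 and no overlap. All but Mcm3 passed the adjusted threshold as higher in C57BL/6J, 6 of 7, where 16.8% of all tested genes did, and Mcm3 passed too without C57BL/6J AngII replicate 3 or 129S6/SvEvTac AngII replicate 2. The strains did not overlap for Mcm6 and Mcm10, where 14.7% of all tested genes had no overlap in that direction.

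**Figure D2:**
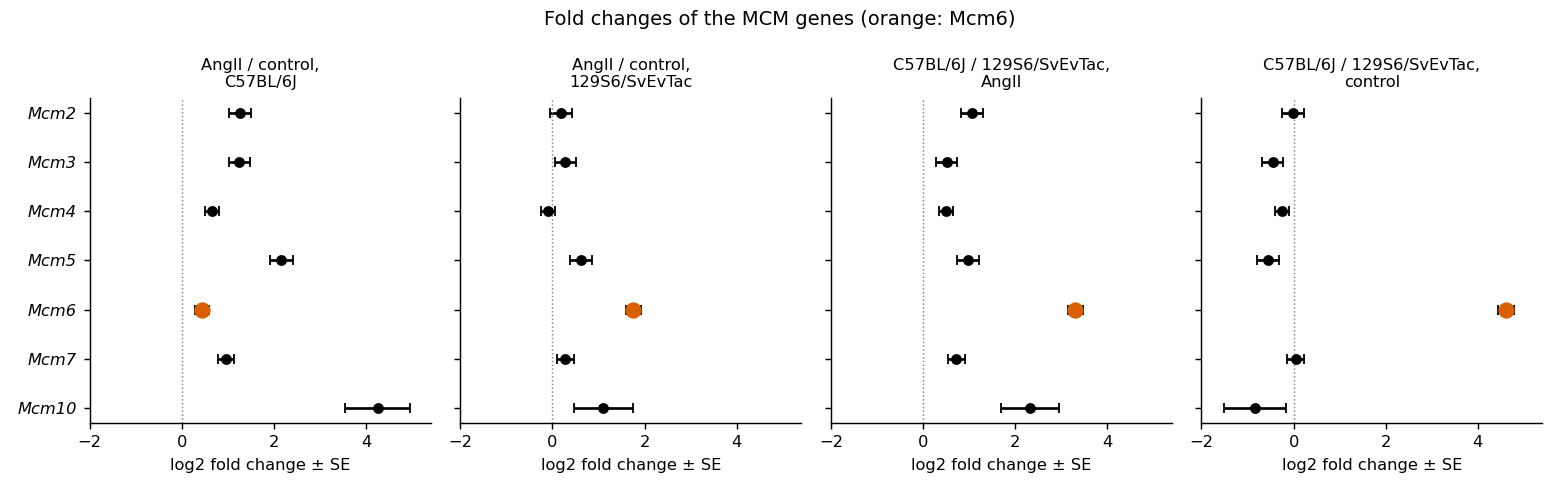
log2 fold change ± SE (x axis) of each MCM gene (y axis) with AngII over control in each strain and in C57BL/6J over 129S6/SvEvTac within each treatment. Mcm6, in orange, has the smallest AngII change in C57BL/6J (0.44) and the largest in 129S6/SvEvTac (1.75), and stands at 3.30 and 4.61 between the strains with AngII and in controls.

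The ratio of Mcm6 to its partners gave each group its own level. It was taken in each library as log2 CPM of Mcm6 minus the mean log2 CPM of the 5 partners. It was 1.87, 2.00, 2.83 and 2.30 in C57BL/6J AngII libraries and 3.11, 2.93, 3.07 and 2.95 in C57BL/6J controls. In 129S6/SvEvTac it was -0.60, -0.32, -0.27 and -0.20 with AngII and -1.76, -1.69, -2.08 and -1.81 in controls. No groups overlapped, and AngII libraries lay below controls in C57BL/6J and above controls in 129S6/SvEvTac. The group means were 2.25 ± 0.42 in C57BL/6J AngII, 3.01 ± 0.09 in C57BL/6J control, -0.35 ± 0.17 in 129S6/SvEvTac AngII and -1.84 ± 0.17 in 129S6/SvEvTac control (SD, n = 4 each). Of the summed RPKM of the 6 subunits, Mcm6 made up 45.6 ± 6.56% in C57BL/6J AngII, 56.5 ± 1.93% in C57BL/6J control, 11.7 ± 1.22% in 129S6/SvEvTac AngII and 4.25 ± 0.51% in 129S6/SvEvTac control libraries. By this share the C57BL/6J groups overlapped slightly, with AngII replicate 3 at 54.5% and control replicate 2 at 54.1%.

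The ratio moved mainly with the partners in C57BL/6J and with Mcm6 in 129S6/SvEvTac. The summed CPM of the 5 partners was 117 ± 33.4 in C57BL/6J AngII, 53.6 ± 1.501 in C57BL/6J control, 71.7 ± 15.8 in 129S6/SvEvTac AngII and 63.0 ± 5.06 in 129S6/SvEvTac control libraries. Within C57BL/6J AngII the sum was 133, 156, 80.7 and 99.8 CPM in replicates 1, 2, 3 and 5. Replicate 3, with the lowest sum, had the highest ratio, while its Mcm6 level of 109 CPM was the second highest. The same library stood apart in cell type markers: its smooth muscle sum was 29630 CPM, against 12540 to 17800 CPM in the other C57BL/6J AngII libraries, and its fibroblast, macrophage and adipocyte sums were the lowest of the 4, at 13050, 1059 and 170 CPM. The part of these cells in its ratio was not tested.

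**Figure D3:**
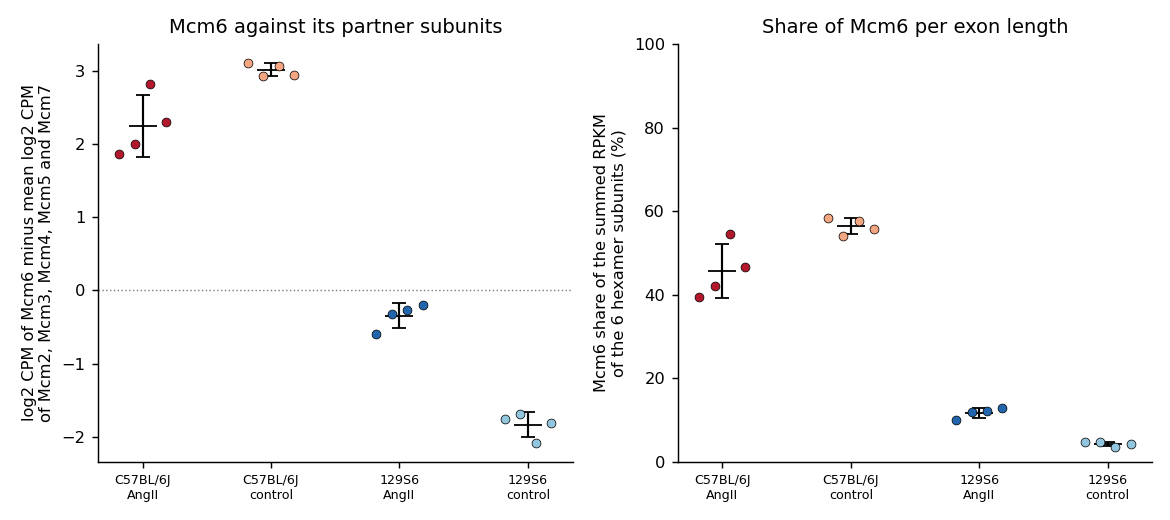
Left, log2 CPM of Mcm6 minus the mean log2 CPM of its 5 partners; right, share of Mcm6 in the summed RPKM of the 6 subunits in percent; points are libraries, bars and whiskers the mean and SD of 4. In the left panel AngII lies below control in C57BL/6J and above it in 129S6/SvEvTac with no overlap between the 4 groups; in the right panel the 2 C57BL/6J groups overlap at 54.1 to 54.5%.

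The other genes of DNA replication were followed in lists of 83 genes without the MCM members, of which 81 could be tested. With AngII in C57BL/6J, 47 rose and 4 fell by edgeR's test, with a median log2 fold change of 0.92 against 0.01 for all genes. Of all tested genes 21.8% rose and 17.1% fell. In 129S6/SvEvTac 18 rose and 3 fell, with a median of 0.22 against 0.00 for all genes, where 7.71% and 4.47% of all tested genes did. For the difference of the effects 21 were higher in C57BL/6J and 0 lower, where 5.34% and 4.62% of all genes were. At an unadjusted p below 0.05 edgeR gave 36 higher and 0 lower, and DESeq2 called 31 higher and 0 lower. The adjusted edgeR count of 21 became 13 without C57BL/6J AngII replicate 1, 129S6/SvEvTac AngII replicate 4 or 129S6/SvEvTac control replicate 2. It became 34 without C57BL/6J AngII replicate 3. The shares of all tested genes given here also stand beside the counts of the single lists below.

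Genes that load the ring onto origins rose in C57BL/6J, 4 of 9. Cdc6, the loading ATPase, stood at 6.23, 8.31, 4.28 and 2.92 CPM with AngII and at 0.20 to 0.71 CPM in controls, a log2 fold change of 3.41 ± 0.42 (SE, edgeR adjusted p = 2.14e-05). Cdt1, which brings the ring to the origin, rose by 2.15 ± 0.40 (adjusted p = 0.000643) and Gmnn, the inhibitor of Cdt1, by 1.64 ± 0.27 (adjusted p = 0.000256). Orc1, a subunit of the origin recognition complex, was the fourth (adjusted p = 0.00222). With AngII in 129S6/SvEvTac 0 of the 9 were called by edgeR, 2 had an unadjusted p below 0.05 and 1 was called by DESeq2. There Cdc6 had 0.92, 1.21, 1.08 and 0.82 CPM with AngII and 0.41 to 0.95 CPM in controls. The difference of the effects was called for 1 of them, Cdc6, at 2.64 ± 0.56 (adjusted p = 0.0103).

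Genes that activate the helicase or travel with it rose in C57BL/6J in 10 of 15 cases and in 129S6/SvEvTac in 2 of 15. Dbf4, the activating subunit of the Cdc7 kinase, rose by 3.66 ± 0.33 in C57BL/6J (adjusted p = 1.87e-06) and by 1.05 ± 0.31 in 129S6/SvEvTac (adjusted p = 0.0357). Clspn, the checkpoint mediator claspin, rose by 4.22 ± 0.48 in C57BL/6J (adjusted p = 1.17e-05) and by 2.46 ± 0.46 in 129S6/SvEvTac (adjusted p = 0.00297). Topbp1, a scaffold needed for origin firing, rose by 0.997 ± 0.13 in C57BL/6J (adjusted p = 3.63e-05). The effects of 6 of the 15 differed, all higher in C57BL/6J, among them Dbf4 at 2.61 ± 0.43 (adjusted p = 0.003), Gins1, a GINS subunit, at 2.04 ± 0.49 (adjusted p = 0.0189) and Timeless, a fork protection protein, at 2.01 ± 0.53 (adjusted p = 0.0271).

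Fork polymerases, clamp and processing genes rose in C57BL/6J in 12 of 20 cases, and 1 fell. Pole, the catalytic subunit of polymerase epsilon, rose by 2.67 ± 0.42 (adjusted p = 0.000175), and Pold2, an accessory subunit of polymerase delta, fell by 0.66 ± 0.11 (adjusted p = 0.000189). Fen1, the flap endonuclease, rose by 1.48 ± 0.22 (adjusted p = 8.92e-05), although 78.8% of its exon bases lie opposite an antisense gene, so its count is uncertain. In 129S6/SvEvTac 2 rose and 1 fell: Prim2, a primase subunit, by 0.49 ± 0.12 (adjusted p = 0.0126), Pole by 1.45 ± 0.42 (adjusted p = 0.0339), and Pold2, which fell by 0.48 ± 0.11 (adjusted p = 0.00856). These counts are near the shares of all tested genes in that strain, 7.71% higher and 4.47% lower.

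All 6 nucleotide supply genes rose in C57BL/6J and 2 of 6 in 129S6/SvEvTac. Rrm2, the regulated subunit of ribonucleotide reductase, stood at 26.2, 42.9, 13.9 and 15.3 CPM with AngII and 1.99 to 2.44 CPM in controls in C57BL/6J. In 129S6/SvEvTac it stood at 7.22, 9.64, 6.39 and 7.31 CPM with AngII and 1.88 to 2.88 CPM in controls. No AngII library reached down to its controls. The log2 fold change was 3.53 ± 0.32 in C57BL/6J (adjusted p = 2.03e-06) and 1.70 ± 0.30 in 129S6/SvEvTac (adjusted p = 0.00208), and the effects differed by 1.83 ± 0.42 (adjusted p = 0.0146). Tk1, thymidine kinase, rose by 3.50 ± 0.34 in C57BL/6J (adjusted p = 3.48e-06) and by 1.65 ± 0.33 in 129S6/SvEvTac (adjusted p = 0.00432).

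Among E2F factors and pocket proteins 6 of 11 rose and 1 fell in C57BL/6J, and 4 rose and 1 fell in 129S6/SvEvTac. E2f1, an activator, rose by 2.06 ± 0.24 in C57BL/6J (adjusted p = 1.22e-05) and by 0.91 ± 0.23 in 129S6/SvEvTac (adjusted p = 0.0183), and the effects differed by 1.15 ± 0.32 (adjusted p = 0.0358). E2f8, a repressor of the family, rose by 5.50 ± 0.71 in C57BL/6J (adjusted p = 3.24e-05) and by 3.65 ± 0.70 in 129S6/SvEvTac (adjusted p = 0.00361), from controls at or below 0.285 CPM. The gene that fell in both was Rbl2, the p130 pocket protein of resting cells, by 0.53 ± 0.13 in C57BL/6J (adjusted p = 0.00482) and 0.45 ± 0.13 in 129S6/SvEvTac (adjusted p = 0.0336).

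Cyclin, kinase and inhibitor genes of the G1/S step moved in both directions. In C57BL/6J 7 of 15 rose and 2 fell, and in 129S6/SvEvTac 6 rose and 1 fell. Ccna2, cyclin A2, rose by 5.11 ± 0.44 in C57BL/6J (adjusted p = 1.57e-06) and 3.50 ± 0.43 in 129S6/SvEvTac (adjusted p = 0.000143). Cdkn1a, the p21 inhibitor of cyclin-dependent kinases, also rose, by 1.46 ± 0.14 in C57BL/6J (adjusted p = 2.93e-06) and 0.92 ± 0.14 in 129S6/SvEvTac (adjusted p = 0.00063). Cdkn1c, the p57 inhibitor, fell in both, by 0.58 ± 0.19 in C57BL/6J (adjusted p = 0.0235) and 1.02 ± 0.19 in 129S6/SvEvTac (adjusted p = 0.00322). Exon bases shared with a gene on the other strand make some of these counts uncertain, at 30.7% for Cdkn1c, 12.5% for Ccna2, 11.8% for Rbl2, 11.2% for E2f8, 10.8% for Orc1 and 7.68% for Cdkn1a.

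The proliferation markers Mki67 and Top2a rose in both strains. Mki67, the Ki-67 antigen of cycling cells, stood at 116, 167, 44.4 and 61.5 CPM in C57BL/6J AngII libraries and 2.31 to 4.35 CPM in C57BL/6J controls. In 129S6/SvEvTac it stood at 17.2, 39.0, 14.3 and 20.98 CPM with AngII and 1.84 to 3.50 CPM in controls. All AngII libraries were above all controls, and those of C57BL/6J were above those of 129S6/SvEvTac. The log2 fold change was 4.80 ± 0.45 in C57BL/6J (adjusted p = 2.68e-06) and 3.18 ± 0.43 in 129S6/SvEvTac (adjusted p = 0.000285). Top2a, topoisomerase II alpha, had 4.999 ± 0.46 in C57BL/6J (adjusted p = 2.19e-06) and 3.19 ± 0.43 in 129S6/SvEvTac (adjusted p = 0.000285). The difference of the effects was not called for either marker by edgeR, though both had an unadjusted p below 0.05 and both were called by DESeq2. In 129S6/SvEvTac these markers thus had log2 fold changes of 3.18 and 3.19, while the 5 partner subunits had a median of 0.28.

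**Figure D4:**
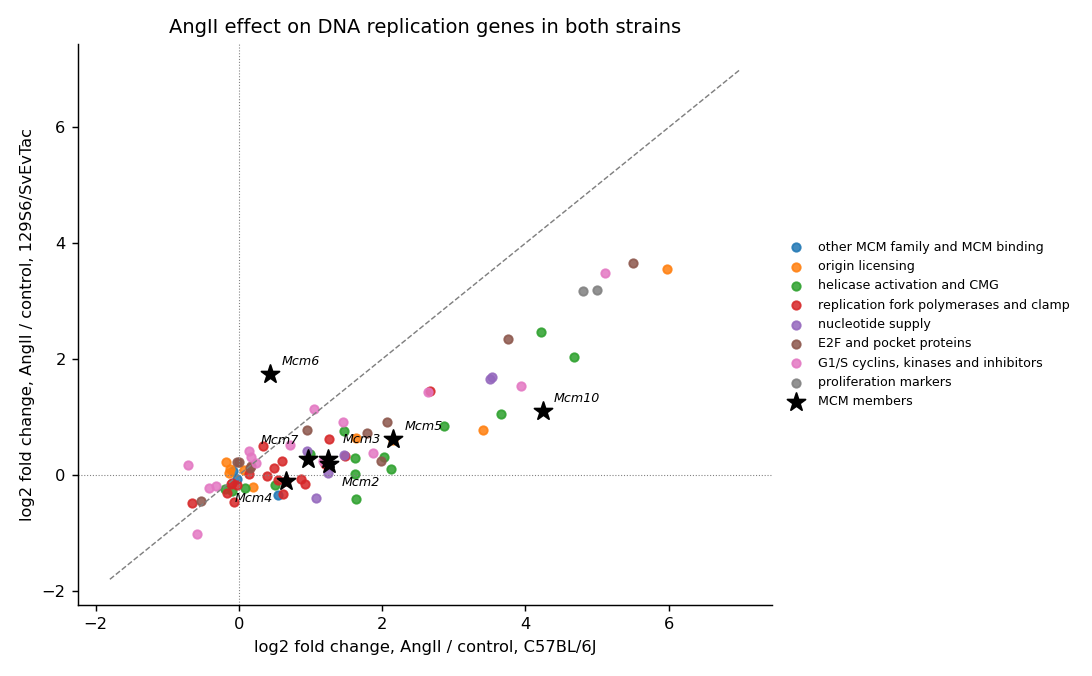
log2 fold change with AngII in C57BL/6J (x axis) against that in 129S6/SvEvTac (y axis) for the 81 tested replication genes, coloured by list, and the 7 MCM genes (stars); the dashed line marks equal change. Mcm6 lies above the line at 0.44 and 1.75, and the other MCM genes lie below it.

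Between control strains few replication genes differed. Of 81 tested, 3 were higher in C57BL/6J and 2 lower, where 5.35% and 5.06% of all tested genes were. Pcna, the sliding clamp, stood at 37.6, 37.0, 37.7 and 39.5 CPM in control C57BL/6J and at 26.0, 25.2, 29.0 and 27.3 CPM in control 129S6/SvEvTac aortas, a log2 fold change of 0.50 ± 0.12 (adjusted p = 0.0149). The other higher genes were Cdkn1a at 0.81 ± 0.14 (adjusted p = 0.00091) and Cdk6, a G1 kinase, at 0.28 ± 0.09 (adjusted p = 0.0496). The lower genes were Pold2 at -0.35 ± 0.10 (adjusted p = 0.0477) and E2f2, an E2F activator, at -1.26 ± 0.33 (adjusted p = 0.0239). With AngII 41 were higher in C57BL/6J and 2 lower, where 16.8% and 14.6% of all tested genes were. The more distant relatives Mcm8 and Mcm9, which act in recombination, and the MCM-binding protein gene Mcmbp were not called for AngII in either strain by edgeR or DESeq2, and 1 of the 3 in C57BL/6J and 0 in 129S6/SvEvTac had an unadjusted p below 0.05. Mcm8 was higher in C57BL/6J than in 129S6/SvEvTac with AngII, by 0.68 ± 0.24 (adjusted p = 0.0426), at 3.50, 4.09, 2.04 and 2.28 CPM in C57BL/6J and 1.56, 2.17, 1.58 and 2.11 CPM in 129S6/SvEvTac.

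Markers of several cell types also changed with AngII, more of them in C57BL/6J than in 129S6/SvEvTac. In C57BL/6J with AngII all 8 monocyte and macrophage markers rose, and their summed level was 1059 to 2094 CPM with AngII and 375 to 496 CPM in controls. In 129S6/SvEvTac 0 of the 8 were called by edgeR or DESeq2 and 0 had an unadjusted p below 0.05, with sums of 247 to 475 CPM with AngII and 193 to 357 CPM in controls. Smooth muscle markers fell in 6 of 7 cases in C57BL/6J, with sums of 12540 to 29630 CPM with AngII and 38960 to 42200 CPM in controls, and in 0 of 7 in 129S6/SvEvTac, where 1 had an unadjusted p below 0.05, as higher, and DESeq2 called 0. Adventitial fibroblast markers rose in 4 of 6 cases in C57BL/6J and 2 of 6 in 129S6/SvEvTac by edgeR. At an unadjusted p below 0.05 edgeR gave 6 and 4, and DESeq2 called 4 and 3. Their sums in C57BL/6J were 13050 to 19880 CPM with AngII and 3088 to 3670 CPM in controls. In 129S6/SvEvTac the sums were 5607 to 11680 CPM with AngII and 2537 to 3946 CPM in controls. Adipocyte markers rose in 8 of 8 cases in C57BL/6J, with sums of 170 to 3673 CPM with AngII and 95.2 to 311 CPM in controls, the highest in replicate 1. In 129S6/SvEvTac 0 of the 8 were called by edgeR or DESeq2 and 0 had an unadjusted p below 0.05, with sums of 304 to 1339 CPM with AngII and 138 to 633 CPM in controls. For the difference of the effects 0 of the 8 were called by edgeR and 1 by DESeq2, and 7 had an unadjusted p below 0.05, all higher in C57BL/6J. T and B cell markers summed to at most 8.48 CPM in any library. Endothelial markers rose in 2 of 6 cases in each strain by edgeR and by DESeq2. Of all tested genes 21.8% rose in C57BL/6J and 7.71% in 129S6/SvEvTac by edgeR. In C57BL/6J 1 endothelial marker was lower by DESeq2, and 1 at an unadjusted p below 0.05 in edgeR. Endothelial sums in C57BL/6J were 609 to 814 CPM with AngII and 797 to 994 CPM in controls. In 129S6/SvEvTac they were 638 to 1748 CPM with AngII and 641 to 967 CPM in controls. None of these markers was at 0 in every library of a group, apart from Myh4 and Myl2 of the skeletal and cardiac muscle list. The part of these cell types in the MCM differences was not tested. Between control strains, where Mcm6 differed 24.5-fold, 1 of 8 macrophage markers was higher and 0 of 7 smooth muscle and 0 of 6 fibroblast markers were called by edgeR. In each of these muscle and fibroblast lists 1 had an unadjusted p below 0.05 and DESeq2 called 0, while it called 2 of 8 macrophage markers as higher. By edgeR 1 of 6 endothelial and 1 of 7 T and B cell markers were lower in C57BL/6J controls. The medians of these lists were 0.10 and -0.15 on the log2 scale. Of all tested genes 5.35% were higher and 5.06% lower in C57BL/6J controls. The median log2 fold change was -1.39 for adipocyte markers, with 0 called by edgeR, 3 lower at an unadjusted p below 0.05 and 2 by DESeq2. It was -2.04 for red blood cell markers, with 0 called by edgeR, 4 lower at an unadjusted p below 0.05 and 1 by DESeq2.

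Protein-coding genes next to Mcm6 on chromosome 1 differed far less between the strains than Mcm6 did. Of 13 other tested genes whose start lies within 1 Mb of that of Mcm6, 5 differed between controls (38.5%, against 10.4% of all tested genes). Dars, which encodes an aspartyl-tRNA synthetase and starts 57.7 kb away, averaged 63.5 ± 1.92 CPM in control C57BL/6J and 42.1 ± 1.40 CPM in control 129S6/SvEvTac aortas (SD, n = 4 each), a log2 fold change of 0.59 ± 0.06 (SE, edgeR adjusted p = 8.99e-06). Ubxn4, 115.7 kb away, averaged 113 ± 7.42 CPM in control C57BL/6J and 92.8 ± 3.76 CPM in control 129S6/SvEvTac aortas (log2 fold change 0.28 ± 0.08, adjusted p = 0.0344). Zranb3, a DNA translocase of stalled forks, averaged 4.34 ± 0.81 CPM in control C57BL/6J and 6.27 ± 0.72 CPM in control 129S6/SvEvTac aortas (-0.53 ± 0.16, adjusted p = 0.0485). The other called genes were both lower in C57BL/6J: the pseudogene Rpl28-ps1 (-0.89 ± 0.26, adjusted p = 0.0385) and an unnamed antisense model, with 0 counts in C57BL/6J controls, which allows 0.0503 to 0.0647 CPM by the floor of 3 counts, and 0.38 ± 0.29 CPM in 129S6/SvEvTac controls. Both lie within the span of Zranb3, so these 3 counts are uncertain. R3hdm1, which lies between Zranb3 and Ubxn4, averaged 45.0 ± 3.79 CPM in control C57BL/6J and 45.8 ± 1.63 CPM in control 129S6/SvEvTac aortas.

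With AngII 4 of the 13 differed between the strains (30.8%, against 31.3% of all tested genes). Cxcr4, a chemokine receptor of leukocytes, averaged 13.2 ± 3.68 CPM in C57BL/6J and 3.57 ± 0.66 CPM in 129S6/SvEvTac, a log2 fold change of 1.89 ± 0.37 (adjusted p = 0.00128). In controls it did not differ, at 1.93 ± 1.21 CPM in C57BL/6J and 1.91 ± 0.54 CPM in 129S6/SvEvTac. With AngII over control Cxcr4 rose by 2.78 ± 0.39 in C57BL/6J (edgeR adjusted p = 5.74e-05). In 129S6/SvEvTac that change was 0.90 ± 0.37 (edgeR adjusted p = 0.136). Between AngII strains Dars was also higher in C57BL/6J, by 0.28 ± 0.06 (adjusted p = 0.00316). Ccnt2, cyclin T2, and Rab3gap1 were lower there, at -0.48 ± 0.13 (adjusted p = 0.0129) and -0.24 ± 0.06 (adjusted p = 0.00908). Within 500 kb 5 of 9 genes were called between controls and 3 of 9 with AngII.

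**Figure D5:**
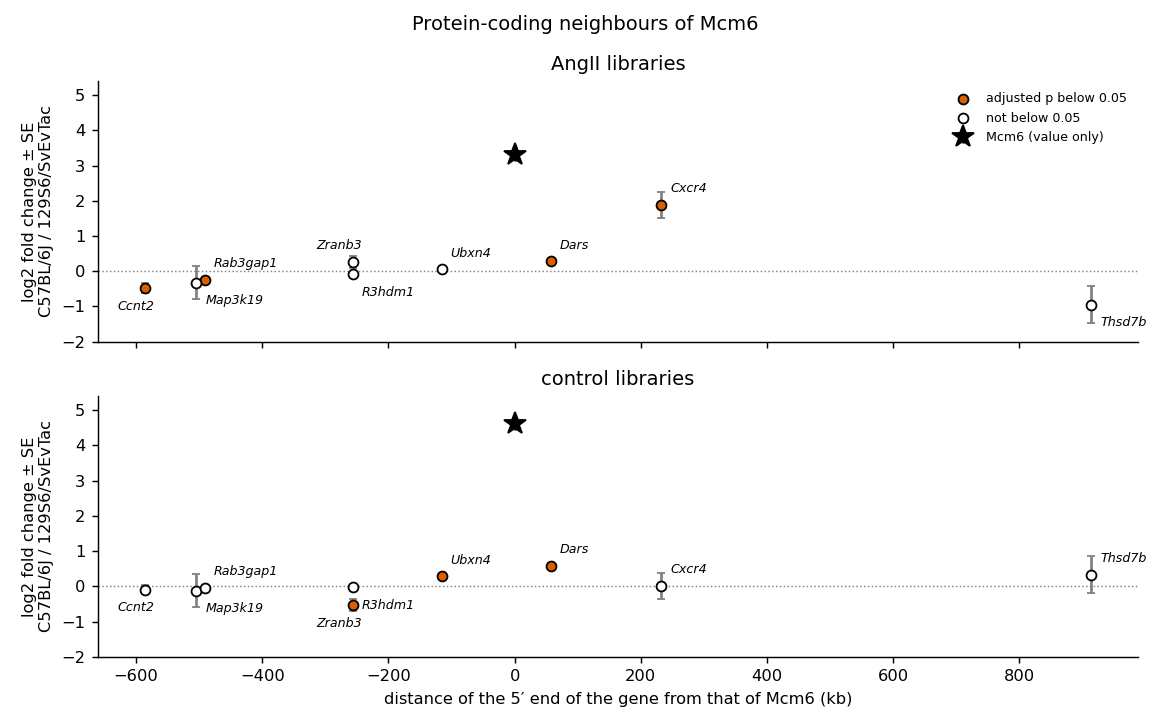
log2 fold change ± SE of C57BL/6J over 129S6/SvEvTac (y axis) for tested protein-coding genes within 1 Mb of Mcm6 against the distance between 5′ ends in kb (x axis), in AngII and control libraries; filled points passed the adjusted threshold. The star, Mcm6, stands at 3.30 and 4.61, and no protein-coding neighbour exceeds 1.89.

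Some genes outside the replication lists lay close to the mean profile of the 6 ring subunits. That mean carries the strain gap of Mcm6, which the partners do not share. Between control strains Mcm6 had a log2 fold change of 4.61, and the 5 partners had a median of -0.25. A gene near this mean is therefore not near each subunit. Likeness was the root mean square difference between log2 CPM profiles over the 16 libraries, each centred on its own mean. The genes nearest to the mean of the 6 ring subunits, which itself varied with an SD of 0.64, were Pdia6, Reep4, Pask, Pdia5, Rcn1, Dsn1, Jpt2 and Polh, at differences of 0.19 to 0.23 log2 units. Pdia6, a protein disulphide isomerase of the endoplasmic reticulum, averaged 286 ± 56.2 CPM in C57BL/6J AngII, 145 ± 14.2 in C57BL/6J control, 153 ± 12.8 in 129S6/SvEvTac AngII and 99.5 ± 14.2 CPM in 129S6/SvEvTac control libraries. Dsn1, a kinetochore component, and Polh, a translesion polymerase, averaged 5.04 ± 1.70 and 16.2 ± 4.97 CPM in C57BL/6J AngII libraries.

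The profile of Mcm6 relative to its partners, with an SD of 1.97 log2 units, was most like those of the named genes Pttg1, Slc6a17, Arhgef19, Dpp10 and Rab6b, at differences of 0.48 to 0.67. Between Dpp10 and Rab6b lay 1 unnamed gene model, left out of this order. Pttg1 on chromosome 11, which encodes the separase inhibitor securin, averaged 15.5 ± 3.35 CPM in C57BL/6J AngII, 34.8 ± 1.66 in C57BL/6J control, 1.92 ± 0.40 in 129S6/SvEvTac AngII and 1.13 ± 0.37 CPM in 129S6/SvEvTac control libraries. All of these genes were higher in both C57BL/6J groups than in both 129S6/SvEvTac groups. That follows from their choice, because the profile they were matched to carries this strain gap. In C57BL/6J the means of Pttg1, Slc6a17, Dpp10 and Rab6b were lower with AngII. The mean of Arhgef19 was higher with AngII, as was that of Mcm6. Dpp10 on chromosome 1 was listed at 0 in every 129S6/SvEvTac library, which allows 0.0262 to 0.0757 CPM by the floor of 3 counts. It was low in C57BL/6J too, at 0.27 ± 0.13 CPM with AngII and 0.89 ± 0.26 CPM in controls.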

How the data were processed

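Total RNA of whole descending thoracic aorta was sequenced in 16 libraries. Per the labels' protocols, HISAT2 aligned the reads of both strains to GRCm38 (mm10), and StringTie estimated abundances on Gencode annotation. The authors deposited an expected count for each gene, in whole numbers. Not given in the sources used here are the strandedness, the Gencode release and the step from StringTie to counts, which leaves counts of overlapping genes uncertain. DESeq2 1.26.0 and R 3.6.2 are named in the submitters' processing notes with no role. GRCm38 is a C57BL/6J genome, and its effect on counts of 129S6/SvEvTac reads was not tested.

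Symbols and positions came from GENCODE M21 on GRCm38, which named 52489 of 52636 genes. In R 4.3.3, edgeR 4.0.16 was run with filterByExpr (minimum count 10), TMM scaling and a robust quasi-likelihood fit with 1 mean per group over all 16 libraries, and a gene was called at a p below 0.05 after Benjamini-Hochberg adjustment. log2 CPM used a prior count of 2. No replicates were alike: over 24 pairs the chi-square per degree of freedom was at least 38.8. The fit was tested on simulated counts. Near-identical copies were searched with blastn 2.17.0 (at least 200 bases at 90%). The members, gene lists and tests were chosen with earlier results of these data known. Named genes were the members, up to 3 called genes per list and comparison by p, every gene in a count of 5 or fewer, called neighbours of Mcm6 and the nearest profiles; R3hdm1 was added after its values were seen, and the genes named with values in text are picked from these. Alternatives were other scalings, filters, DESeq2 1.42.0, only the groups compared, a replicate block, left-out libraries, other prior counts, windows and gene lengths.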

Additional observations from a re-analysis of the deposited data

Results flagged for a closer look

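In edgeR's test of the difference of the AngII effects 4 MCM genes had an adjusted p below 0.05. They had been chosen on these contrasts, so the pass describes them and supports nothing further. The difference, C57BL/6J minus 129S6/SvEvTac, was 0.75 for Mcm4, 1.54 for Mcm5, -1.31 for Mcm6 and 3.15 for Mcm10 on the log2 scale.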

How the results depend on the processing

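Correlation gave little sign that the replicate numbers of the labels pair the samples. Same-numbered deviations from group means had r between -0.06 and 0.146 over genes, and 5 of 14 samples correlated best with their own number. Low correlations over genes cannot exclude pairing. With the replicate block, 6175 genes were called with AngII in C57BL/6J, 1426 with AngII in 129S6/SvEvTac, 1383 between control strains, 4459 between AngII strains and 1590 for the difference, against 6664, 2087, 1783, 5367 and 1706 without it; the other replication genes called were 51, 17, 2, 40 and 19, against 51, 21, 5, 43 and 21. Between control strains the count of other replication genes, 5, was 3 without a filter and 8 with only the groups compared, where 2772 genes were called in all, and 1 to 7 with a library left out. For the difference of effects, 2663 genes were called by DESeq2. Leaving out a library gave 1039 to 2990 genes and 13 to 34 other replication genes. The ends were without 129S6/SvEvTac control replicate 2 (1039) and without C57BL/6J AngII replicate 3 (2990), and the count was 1076 without 129S6/SvEvTac AngII replicate 4. Without C57BL/6J AngII replicate 1 and 129S6/SvEvTac AngII replicate 5 together, a choice made after seeing the data, 1049 genes and 9 other replication genes were called. The causes were not tested. The other 248 alternative values of these summary results stayed on their side of the threshold or within 1.5 times. Of the MCM log2 fold changes under the alternatives, 831 moved by less than the spread and 1 by more: Mcm10 between AngII strains, 1.84 with the replicate block. Passes were lost for Mcm6 with AngII in C57BL/6J and for Mcm10 between AngII strains and in the difference under that block, for Mcm4 between AngII strains with only the groups compared, and for Mcm4 and Mcm10 both there and in the difference without the 2 libraries; Mcm10 also lost it in the difference with no filter. Passes were gained in the difference for Mcm2 and Mcm3 by DESeq2 and with library size only, for Mcm2 also with a filter at 1 CPM in 4 libraries, and between control strains for Mcm3 and Mcm5 with only the groups compared. Mcm10 had at most 26 counts in control libraries. Of 28 levels per length, 14 moved by more than the spread when the longest transcript was used.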
